A study of Mus musculus with 32 samples.

Results

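The genes of the cytosolic ribosome's own proteins were followed across 32 lymphomas of Eµ-myc mice, on 1 Affymetrix Mouse430_2 array for each tumour. The members were every platform symbol of the Rpl and Rps series together with Rplp0, Rplp1, Rplp2, Rpsa and Fau, without the Rps6k kinases, Rps27l and pseudogene symbols. In all, 81 symbols met that rule. Of these, 50 had a probe set that named no other gene, and these 50 were measured. The other 31, among them Rpl3, Rpl5, Rpl10, Rplp1, Rpl36a, Rps12, Rps13 and Rps23, were named only on probe sets that list several genes and were not analysed here. After a filter on dim probe sets, a mean log2 value of at least 5.78, 46 of the 50 members remained among 11227 genes tested. The rule also took in genes that are no standard ribosomal protein: the paralogs Rpl22l1 and Rpl7l1 passed the filter, as did Rps19bp1, whose product binds Rps19.

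All 32 tumours carry the same Eµ-myc transgene, which places Myc under an enhancer of the antibody heavy chain locus and so expresses it in B cells and their precursors. There is 1 group in the labels, with no control mice, no treatment and no ages, so the values describe how these tumours differed from each other. RNA came from frozen tumour tissue or from frozen dissociated cells, and which was used for a given tumour is not stated. Of 9 B lineage marker genes, 8 had a probe set of their own and all 8 passed the filter, with Cd79b between 11.11 and 12.63. Markers of myeloid cells (13 of 14 passed), connective tissue (10 of 10) and T cells (5 of 10) were also measurable. In bulk RNA, fewer cells of a type and less RNA per cell cannot be told apart. Nothing in the labels says whether 2 tumours shared a mouse, so p-values measure the spread between these 32 arrays.

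A ribosome consists of a large and a small subunit, each an assembly of ribosomal RNA with many proteins that are needed in equal number. Messenger RNAs for these proteins are among the most abundant of a growing cell, and most begin with a pyrimidine tract, the TOP motif, through which growth signals set how often they are translated. Myc is known as a driver of ribosome production, acting on ribosomal RNA synthesis, on assembly factors and on ribosomal protein genes.

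Most ribosomal protein genes were very bright and differed little between tumours. Of the 46, 35 had a mean log2 value between 13.52 and 14.29, and these made up 43.75% of the 80 tested genes with a mean of at least 13. The dimmest of the 35 was Fau, at 13.52, and the brightest of the remaining 11 was Rpl22l1, at 12.78. The SD over the 32 tumours had a median of 0.064 among the 46 members and of 0.28 among all genes tested. For the 35 bright members the median SD was 0.053 (17 of the large subunit 0.051, 18 of the small subunit 0.064), and for the 11 dimmer members it was 0.29. Other genes with a mean of at least 13 (n = 45) had a median SD of 0.11. An SD over 0.2 was found in 9 of 46 members (19.6%) and in 74.4% of all genes tested.

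The 5 steadiest members were Rpl13a (13.87 ± 0.027, SD, n = 32), Rpl38 (14.06 ± 0.030), Rps4x (13.85 ± 0.031), Rplp2 (14.22 ± 0.032) and Rps29 (14.29 ± 0.036). Rpl13a, known beside its ribosomal role for silencing of inflammatory transcripts, lay between 13.82 and 13.93 in all 32 tumours. That holds for its brightest probe set: further Rpl13a probe sets with means of 13.70, 12.97 and 12.14 had SDs of 0.053, 0.22 and 0.37. Rpl38, known for its role in translation of Hox messages, ranged from 14.02 to 14.16. Rplp2, a protein of the ribosomal stalk, ranged from 14.13 to 14.30. These ranges lie near the top of the scale: the highest value of an array was 14.36 to 14.45. Prokaryotic control RNAs added at hybridisation gave a measure of array noise, and their 9 probe sets had SDs of 0.072 to 0.22. The SD of 27 of 46 members (58.7%) was below the lowest of these, against 36 of all 11227 genes tested (0.321%). The brightest controls, 2 cre probe sets at 13.67 and 13.92, had SDs of 0.090 and 0.072. The share of a signal ceiling in the small spread of the bright members was not tested.

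**Figure D1:**
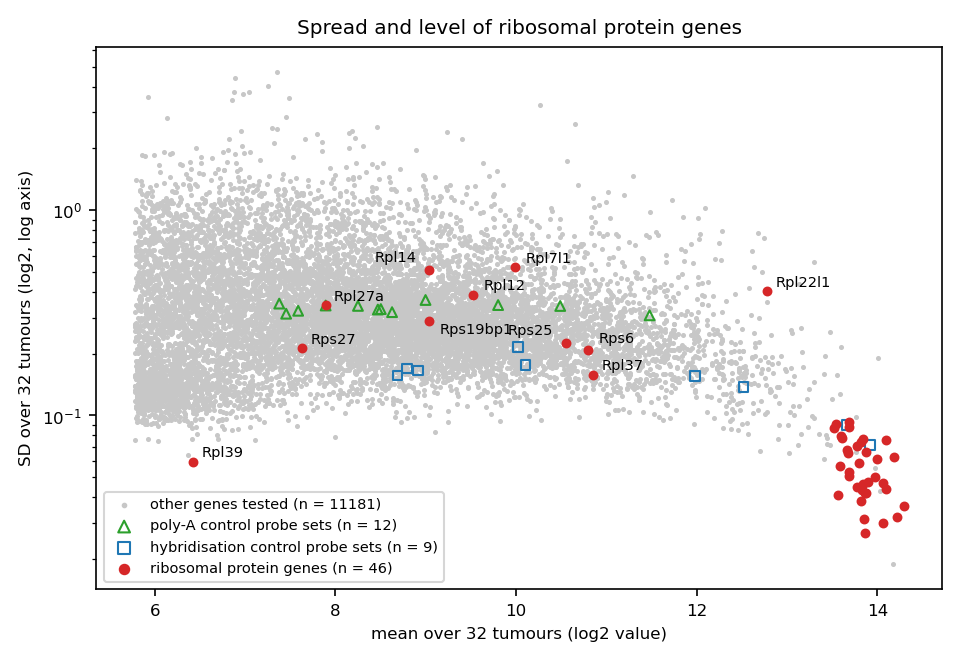
SD over 32 tumours (log2 units, log axis) against the mean log2 value of each gene. Red points are the 46 ribosomal protein genes, grey points the 11181 other genes tested, squares 9 hybridisation control probe sets and triangles 12 poly-A control probe sets. The 35 bright members lie together at the lower right, and the 11 members with a mean under 13 are named.

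The wider spread sat in the dimmer members. Rpl7l1, a paralog of Rpl7 with a role in ribosome assembly, varied most (9.99 ± 0.53, SD, n = 32): it stood at 8.13 in tumour 30 and 8.80 in tumour 18, around a median of 10.13, and reached 10.89 in tumour 10. Rpl14, of the large subunit, was lowest in the same tumours, at 7.71 in tumour 30 and 7.79 in tumour 18, with a median of 9.13 and a highest value of 9.78 in tumour 26. Rpl12, which lies at the base of the stalk, ranged from 8.53 in tumour 30 to 10.23 in tumour 22. Rpl27a, of the large subunit, ranged from 7.35 in tumour 1 to 8.93 in tumour 19. Tumour 30 gave the lowest value of 9 of the 46 members, more than any other tumour.

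Among the next in spread, Rps19bp1 ranged from 8.60 to 9.66, Rps25 from 10.04 in tumour 30 through a median of 10.55 to its highest value in tumour 9, and Rps27 from 7.27 in tumour 13 to 8.16 in tumour 7. Rps25, a small subunit protein, is known for its part in initiation at viral internal entry sites. Levels of different probe sets depend on the probes, so the low readings of Rps27 or Rpl39 (6.42 ± 0.060) do not say that these messages were scarcer than those of other members. The 4 members under the filter were the paralogs Rps4l, Rpl3l and Rpl39l and the small subunit gene Rps16. Rps4l, with a mean of 5.61, was just under the threshold and reached 7.82 in tumour 30. Rps16 had a mean of 3.28, far under it.

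Rpl22l1 stood apart by 2 tumours. Its product is a paralog of Rpl22, a large subunit protein known to be required for lymphocyte development, and Rpl22 is known to repress the paralog's message. Rpl22l1 stood at 11.35 in tumour 14 and at 11.49 in tumour 23, while the other 30 tumours lay between 12.47 and 13.26. Rpl22 itself was not at an extreme in these tumours: it stood at 13.87 in tumour 14 and 13.82 in tumour 23, against a median of 13.83. Rpl10a, of the large subunit, was lowest in the same tumours, at 13.51 in tumour 23 and 13.59 in tumour 14, with a median of 13.69. Tumours 14 and 23 also held the third and second highest values of the tumour suppressor Cdkn2a (10.70 and 10.72). Tumour 7, with the highest (10.79), had Rpl22l1 at 12.59, the 5th lowest of the 32 but within the range of the other 30. In tumour 28, where Rpl22 was lowest (13.47), Rpl22l1 stood at 13.23, its second highest value. In tumour 22, with the highest Rpl22l1 (13.26), Rpl22 stood at 13.83. These genes were set side by side after their values were seen.

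Several isolated low values of bright members were shared with the genes that lie next to them. Rpl11, which is known to bind Mdm2 when ribosome assembly is disturbed, was lowest in tumour 28, at 13.24 against a next lowest of 13.36 and a median of 13.56. Rpl22 was lowest in the same tumour, at 13.47 against a next lowest of 13.73. Both lie on distal chromosome 4, and of the 129 tested genes between them 118 (91.5%) were below their own median in tumour 28. The median deviation of these 129 genes was -0.44 there, while in the other 31 tumours it was between -0.084 and 0.10. The 507 tested genes on the proximal side of Rpl11 had a median deviation of -0.23 in tumour 28. Rps6 and Rps20, elsewhere on chromosome 4, deviated by 0.17 and -0.022 from their medians in that tumour. The 40 tested genes nearest Rps6 had a median deviation of -0.19 there, with 29 below their median, so Rps6 did not share it. For the 25 nearest Rps20 it was 0.024, with 10 below.

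Fau, whose product is a small subunit protein made as a fusion with a ubiquitin-like protein, was lowest in tumour 14, at 13.13 against a next lowest of 13.43. Of its 40 nearest tested genes on chromosome 19, 37 were below their median in that tumour, with a median deviation of -0.46. The remaining 371 tested genes of chromosome 19 had a median deviation of -0.58 there. Rpl22l1 differed from this: in tumours 14 and 23 its 40 neighbours on chromosome 3 had median deviations of -0.076 and 0.00037, where Rpl22l1 itself was at its lowest. Rps19, known for its mutation in Diamond-Blackfan anaemia, was lowest in tumour 9 (13.39, next lowest 13.52), where its neighbours deviated by -0.083. These cases were picked after their values were seen and carry no test.

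Over all members, the value of a gene was set against the median of the 20 tested genes on each side of it, with members left out of that median. Pearson's r over the 32 tumours had a median of 0.35 for the 46 members and of 0.22 for 11157 other tested genes. It was over 0.5 for 16 of 46 members (34.8%) and for 18.2% of the others. Rps19bp1 (r = 0.85), Rps3a1 (r = 0.82), Rpl22 (r = 0.76), Rps15 (r = 0.71) and Fau (r = 0.70) were highest. These values are a description, since neighbouring genes share the same tumours and arrays, and they carry no p.

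Differences of whole chromosomes were tested. For each of chromosomes 3, 12 and 15, the mean standardised value of its tested genes, members left out, was computed for every tumour. A gap separated 9 tumours with a high chromosome 3 mean (7, 8, 10, 12, 15, 18, 22, 27 and 32), 4 with a high chromosome 12 mean (6, 16, 20 and 32) and 5 with a high chromosome 15 mean (13, 16, 17, 20 and 31). Whether chromosome copies differ was not measured here. Each gene's slope per SD of the chromosome mean was tested with limma over all genes, with Benjamini-Hochberg adjustment, and an adjusted p under 0.05 was called. The genes that make up a chromosome mean were tested against it too. Their calls are in part built in, and the shares of all genes given below include them.

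On the chromosome 3 mean, 2 of 46 members rose and 0 fell, against 3.08% of all genes tested rising and 1.51% falling (4.6% called). Both lie on chromosome 3. Rps3a1, a small subunit protein, stood in the 9 tumours at 14.20, 14.16, 14.21, 14.17, 14.21, 14.22, 14.20, 14.19 and 14.20, in the order given above. All 9 were above the other 23 tumours, which lay between 13.97 and 14.13. Its slope was 0.064 ± 0.013 (SE) log2 units per SD (adjusted p = 0.0021). Rps27, a zinc finger protein of the small subunit, stood at 7.69 to 8.16 (median 7.80) in the 9 tumours and at 7.27 to 7.94 (median 7.52) in the others, so the groups overlapped. Its slope was 0.15 ± 0.029 (adjusted p = 0.0011). The third member there, Rpl22l1, overlapped widely (12.59 to 13.26 against 11.35 to 13.23) and was not called (adjusted p = 0.39). Of all 540 tested genes on chromosome 3, which apart from the members make up that mean, 48.5% were called. With each array shifted by reference genes, 12 members and 6.72% of all genes were called, and Rps3a1 and Rps27 were still among them, although only 3 members lie on the chromosome.

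On the chromosome 15 mean, 2 of 46 members rose and 0 fell, against 4.26% of all genes rising and 2.24% falling (6.5% called). Rps19bp1, whose product is also known as a regulator of the deacetylase Sirt1, stood at 9.66, 9.61, 9.59, 9.60 and 9.56 in the 5 tumours and at 8.60 to 9.15 in the other 27, without overlap. Its slope was 0.26 ± 0.025 (adjusted p = 4.0e-08). Rpl8, at the core of the large subunit, stood at 13.81, 13.81, 13.77, 13.83 and 13.82 in the same tumours, and 4 of these were above the highest of the others, 13.78. Its slope was 0.058 ± 0.016 (adjusted p = 0.024), and the call ended without tumour 13, 16 or 20 (adjusted p up to 0.071). Rpl37, the third member on chromosome 15, ranged from 10.84 to 11.11 in these 5 tumours and from 10.55 to 11.25 in the others, and was not called (adjusted p = 0.16). Of 461 tested genes on the chromosome, which apart from Myc and the members make up that mean, 40.6% were called.

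On the chromosome 12 mean, 0 of 46 members were called, against 1.1% of all genes rising and 0.169% falling (1.26% called), with 3 members (Rps7, Rps29 and, from chromosome 15, Rps19bp1) at an unadjusted limma p under 0.05, against 10.4% of all genes. Rps29, a zinc finger protein of the small subunit, nonetheless stood at 14.39, 14.36, 14.37 and 14.35 in the 4 tumours, all above the other 28 (14.22 to 14.32), with an adjusted p of 0.40. Rps7, which is known to bind Mdm2, stood at 14.06, 14.09 and 14.10 in tumours 16, 20 and 32, above the highest of the other 28, 14.03, but not in tumour 6 (adjusted p = 0.26). limma draws each gene's spread toward one shared residual SD, here 0.22 to 0.23 over the 9 measures, several times that of the bright members. With a prior that follows the mean level, an alternative chosen after seeing the data, both Rps7 (adjusted p = 0.012) and Rps29 (adjusted p = 0.014) were called, against 1.33% of all genes. That fit called Rps3a1, Rps27 and Rplp0 on the chromosome 3 mean (4.64% of all genes) and left the 2 calls on chromosome 15 (6.35% of all genes). Rplp0, the stalk's base protein, lies on chromosome 5 (adjusted p = 0.042 in that fit).

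**Figure D2:**
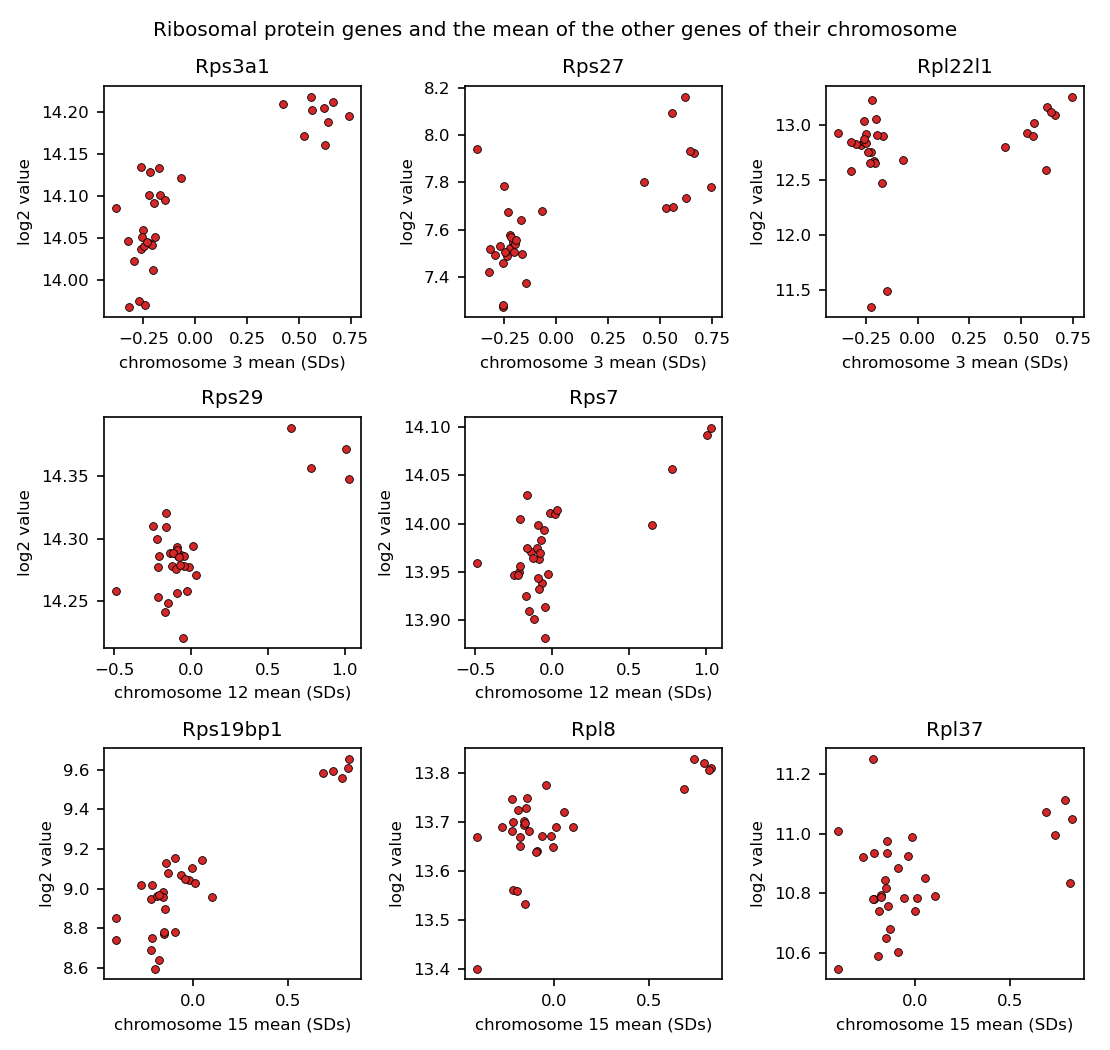
Log2 value of the 8 members on chromosomes 3, 12 and 15 (vertical axes) against the mean standardised value of the other tested genes of the same chromosome (horizontal axes, in SDs), 1 point per tumour. Rps3a1, Rps29 and Rps19bp1 are higher in every tumour with a high chromosome mean than in any other tumour, while Rpl22l1 and Rpl37 overlap.

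Against growth-related measures few members were called. The Myc level, which ranged from 9.81 in tumour 2 to 12.30 in tumour 7, was followed by 1 of 46 members rising and 0 falling, against 10.4% of all genes rising and 9.67% falling (20.1% called). That member was Rps3a1 (slope 0.044 ± 0.015 log2 units per SD, adjusted p = 0.043). The call ended in 12 of 32 fits that left out 1 tumour (2, 4, 5, 6, 7, 9, 18, 22, 24, 25, 27 or 32), with adjusted p up to 0.11. Rps3a1 was also called on the chromosome 3 mean. Tumours 7, 32 and 22, with the highest Myc levels (12.30, 12.20 and 11.88), are among the 9 high in that mean. Tumour 15, also among the 9, had a Myc level of 11.11. The part of the chromosome 3 difference in this call was not tested. The median slope was 0.011 for the members and 0.014 for all genes. Of 34 tested genes of ribosome assembly, 16 rose with Myc and 0 fell, with a median slope of 0.11. The highest was Gnl3, a nucleolar GTP-binding protein (slope 0.17, adjusted p = 7.9e-05). These slopes are not scaled to a gene's spread. The median SD was 0.064 for the members, 0.28 for all genes and 0.27 for the assembly genes. Of 15 other translation genes with a known TOP start, 1 rose, Hnrnpa1 (slope 0.13, adjusted p = 0.019). With the prior that follows the mean level, 5 members rose (Rps3a1, Rpl11, Rplp0, Rpl19 and Rpl4), again against 20.1% of all genes. Among genes with a mean of at least 13, that fit called 5 of 35 members (14.3%) and 4 of 45 others (8.89%). In the first fit these counts were 1 (2.86%) and 2 (4.44%). This comparison was added after seeing the data. With each array shifted by reference genes, 8 members and 21.9% of all genes were called. The difference between the members and the assembly genes was not tested.

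The ribosome assembly score was the mean standardised value of those 34 genes, which include nucleolar factors such as Fbl, Ncl and Nop56. It ranged from -1.93 in tumour 24 to 1.25 in tumour 7. With it 3 of 46 members rose and 1 fell, against 18.5% of all genes rising and 11.7% falling (30.2% called). Rpl14 rose most (slope 0.27 ± 0.077, adjusted p = 0.0088), followed by Rps19bp1 (slope 0.14, adjusted p = 0.017) and Rpl8 (slope 0.054, adjusted p = 0.012), while Rpl27a fell (slope -0.15, adjusted p = 0.044). Rps19bp1 and Rpl8 were also called on the chromosome 15 mean. The tumours with a high chromosome 15 mean had assembly scores of 0.42 (13), 0.53 (16), 0.48 (17), 0.53 (20) and -0.66 (31). The part of the chromosome 15 difference in these calls was not tested. The Rpl8 call ended without tumour 24 (adjusted p = 0.12), and the Rpl27a call ended in 14 of 32 fits that left out 1 tumour. With arrays shifted by reference genes, Rpl8 alone remained called, against 27.8% of all genes. Without tumours 2, 24 and 30, which had the highest host cell scores, 0 members were called with limma, against 15.9% of all genes. With the prior that follows the mean level, Rpl41, Rps2 and Rps15 rose as well, making 6 rising and 1 falling, against 30.2% of all genes. In a comparison added after seeing the data, genes with a mean of at least 13 were counted. In the first fit 1 of 35 members (2.86%) and 12 of 44 others (27.3%) were called, and the median absolute t was 0.90 and 1.67. With the prior that follows the mean level, 4 of 35 members (11.4%) and 16 of 44 others (36.4%) were called.

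The proliferation score was the mean standardised value of 18 cell cycle genes and ranged from -1.58 in tumour 30 to 1.31 in tumour 31. With it 5 of 46 members rose and 1 fell, against 17.7% of all genes rising and 10.1% falling (27.8% called), and all 6 had a mean under 13. Rpl14 rose most, with the 7.71 of tumour 30 and the 7.79 of tumour 18 at the low end of the score (slope 0.34 ± 0.068, adjusted p = 0.00062). No single tumour ended this call. Rpl7l1 rose by 0.29 ± 0.078 per SD (adjusted p = 0.0060), but not without tumour 30 (adjusted p = 0.080). Rps19bp1 rose (slope 0.14, adjusted p = 0.019) and was also called on the chromosome 15 mean. The tumours high in that mean had proliferation scores of 0.43 (13), 0.21 (16), 0.25 (17), 0.25 (20) and 1.31 (31). The part of the chromosome 15 difference was not tested. Rps6, the substrate of the S6 kinases, stood at 10.17 in tumour 30 around a median of 10.84 and rose with the score (slope 0.10, adjusted p = 0.022), but not without tumour 18 or 30 (adjusted p up to 0.15). A second, dim probe set of Rps6 ran against the first (r = -0.41), and the mean of both gave a slope of -0.017 (adjusted p = 0.76).

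Rpl12 also rose with proliferation (slope 0.17, adjusted p = 0.038) and Rpl27a fell (slope -0.15, adjusted p = 0.041). Leaving out 1 tumour ended these calls in 7 fits for Rpl12 (2, 6, 18, 24, 26, 27 or 30) and 9 for Rpl27a (1, 4, 5, 9, 11, 18, 24, 30 or 32). Without tumours 2, 24 and 30, Rpl14 and Rpl7l1 remained called, and with ranks of the score Rpl14 alone did (7.85% and 17.1% of all genes). With the prior that follows the mean level, Rpl8, Rpl41 and Rps2 rose as well, against 28% of all genes. None of the 35 bright members was called in the first fit, against 8 of 44 other bright genes (18.2%). With the prior that follows the mean level these counts were 3 of 35 (8.57%) and 13 of 44 (29.5%). Of the ribosome assembly genes 13 of 34 rose and 0 fell (median slope 0.096), and of the TOP translation genes 4 of 15 rose and 0 fell (median slope 0.037).

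**Figure D3:**
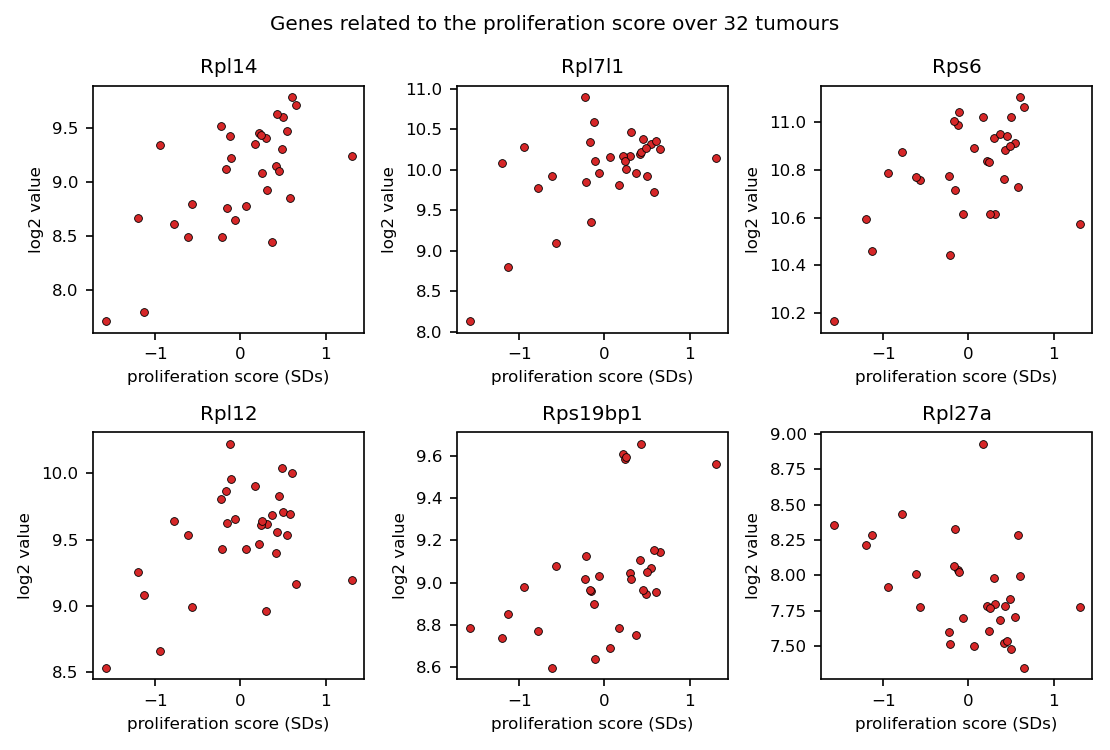
Log2 value of the 6 members called on the proliferation score (vertical axes) against that score (horizontal axes, mean standardised value of 18 genes, in SDs), 1 point per tumour (n = 32). Rpl14, Rpl7l1 and Rps6 have their lowest values in tumour 30, at the lowest score, and Rpl27a falls along the score.

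No member passed the test against developmental stage. The precursor B cell score (12 genes, among them Rag1, Vpreb1 and Il7r) ranged from -0.72 to 1.19, and 0 of 46 members were called with limma, against 1.52% of all genes rising and 0.874% falling (2.39% called). The number of members at an unadjusted p under 0.05 was also 0, against 17.5% of all genes, and with the prior that follows the mean level 0 were called (2.41% of all genes). Of 34 ribosome assembly genes and 15 TOP translation genes, 0 were called either.

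The host cell score, averaged from the marker scores of T cells, myeloid cells and connective tissue, ranged from -0.91 in tumour 29 to 1.73 in tumour 24. With it 0 of 46 members rose and 1 fell, against 13.9% of all genes rising and 14.6% falling (28.5% called), while 19 of 34 assembly genes fell and 0 rose. The member was Rpl12 (slope -0.22 ± 0.057, adjusted p = 0.0048), which stood at 8.53 in tumour 30, 8.66 in tumour 2 and 9.26 in tumour 24. These 3 tumours had the highest host cell scores (1.30, 1.29 and 1.73), and without them 0 members and 8.26% of all genes were called. With the prior that follows the mean level, Rps3a1 and Rpl6 also fell, against 28.4% of all genes. With this score as a covariate, 0 of the 1 member called on Myc, 2 of the 4 called on assembly and 3 of the 6 called on proliferation remained called, and 1 further member was called on proliferation. The share of all genes called fell as well, to 3.22%, 13.6% and 12.9985%.

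Loss of the 5' end is a sign of RNA quality. It was measured on the array's control probe sets for Gapdh and Actb, as the 3' value minus the 5' value. It ranged from 0.26 in tumour 31 to 0.96 in tumour 9. With it 1 of 46 members rose, Rpl27a (slope 0.26 ± 0.042, adjusted p = 0.0041), and 1 fell, Rps19 (slope -0.065 ± 0.016, adjusted p = 0.038). Among all genes 0.321% rose and 0.837% fell (1.16% called). Rpl27a was highest in tumour 19, with the second highest difference (0.90), and Rps19 lowest in tumour 9. Without tumours 9 and 19, 0 members and 0 of all genes were called. The Rps19 call also ended without any 1 of tumours 1, 3, 8, 9, 11, 19 or 27 (adjusted p up to 0.41). With the prior that follows the mean level, Rps18 and Rpl27 fell as well, against 1.24% of all genes. With the difference as a covariate, the slope of Rpl27a with assembly was -0.11 and stayed called (adjusted p = 0.026). Its slope with proliferation was then -0.086 and was no longer called (adjusted p = 0.13).

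**Figure D4:**
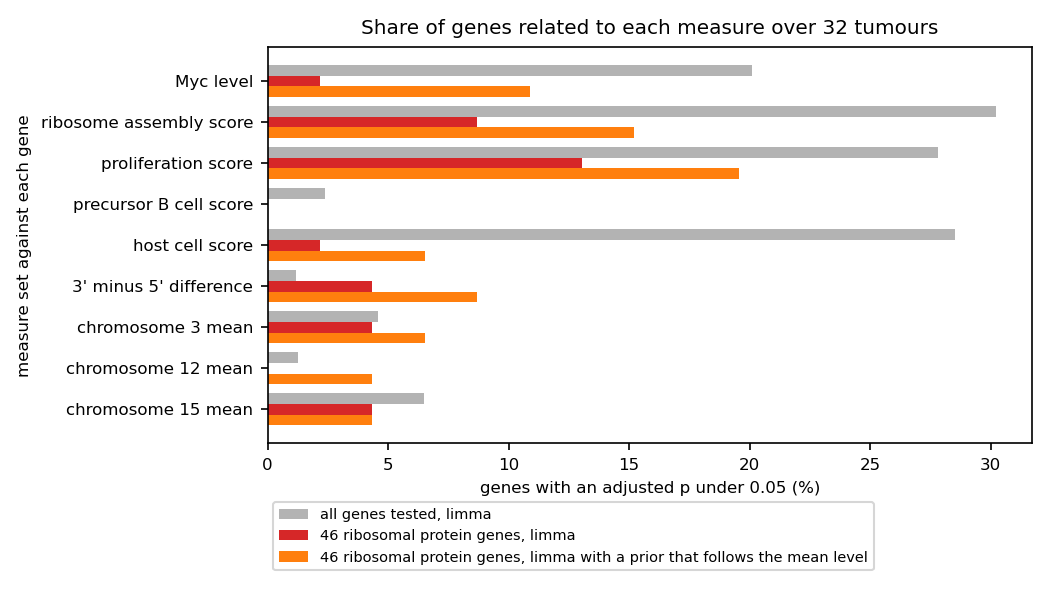
Share of genes with an adjusted p under 0.05 (horizontal axis, percent) for each of 9 measures over the 32 tumours. Grey bars are all genes tested, red bars the 46 ribosomal protein genes with limma, and orange bars the same genes with a prior that follows the mean level. The members' share is below that of all genes for Myc level, assembly, proliferation and host cell score in both fits.

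Members moved together only weakly as the arrays were deposited. The median Pearson r over all 1035 pairs of members was 0.13, against 0.0055 over all pairs of genes tested. It was 0.16 among the 35 bright members, 0.15 within the large subunit, 0.15 within the small subunit and 0.17 between the subunits. Other genes with a mean of at least 13 had a median of 0.087, other TOP translation genes 0.18 and ribosome assembly genes 0.56. The highest pairs were Rps18 with Rps19 (r = 0.79), Rpl10a with Rpl22l1 (r = 0.79), Rpl19 with Rpl4 (r = 0.78) and Rpl14 with Rpl7l1 (r = 0.75). The lowest was Rpl27a with Rps19 (r = -0.61). All values of r share the same 32 arrays and their normalization. Shifting each array by the mean of 7 reference genes, by -0.17 to 0.11, gave a median r of 0.52 and a median SD of 0.090 for the members. Under the same shift the median r was 0.24 for other genes with a mean of at least 13 and 0.048 for all genes tested. A shift common to an array adds to r most where a gene's own spread is small, and the bright members, with the smallest spread, reached 0.64.

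For each tumour, a member score was taken as the mean standardised value of the 46 genes. It was lowest in tumour 24 (-0.91), tumour 9 (-0.82), tumour 30 (-0.56) and tumour 23 (-0.54), and highest in tumours 15 (0.58) and 22 (0.54). In tumour 24, 33 of the 35 bright members were below their own mean. The mean deviation of the bright members was small even there, -0.058, and was -0.066 in tumour 9 and 0.041 in tumour 15. Tumour 24 had the highest host cell score and the lowest assembly score, and tumour 9 the highest 3' minus 5' difference. Tumours 15, 22, 8 (0.47) and 27 (0.47), with the highest member scores, were all among the 9 tumours with a high chromosome 3 mean. The lowest member score among those 9 was -0.037, in tumour 12. The part of these differences in the member scores was not tested.

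**Figure D5:**
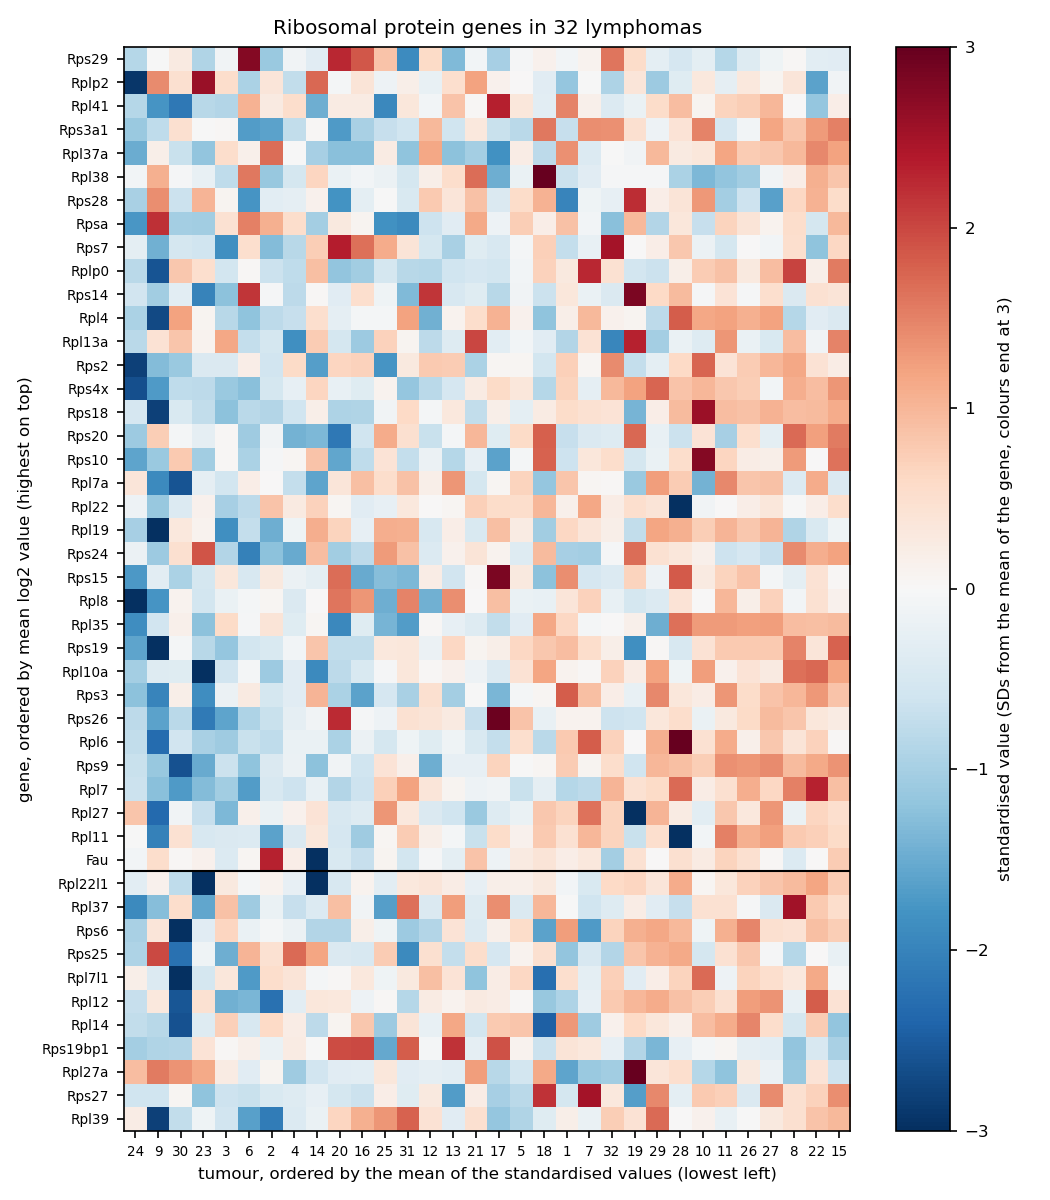
Standardised log2 value (colour, SDs from the gene's mean, ending at 3) of the 46 members in 32 tumours. Genes are ordered by mean value with the 35 bright members above the line, and tumours by member score from tumour 24 to tumour 15. Among the dark cells are Rpl22 and Rpl11 in tumour 28, Fau in tumour 14 and Rpl22l1 in tumours 14 and 23. Further members also have a cell beyond 3 SDs, such as Rpl7l1 in tumour 30 (low) and Rpl38 in tumour 18 (high).

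The tested genes with the highest Pearson r to the member score over the 32 tumours were Gabpb2 (0.76), Ttf2 (0.76), Rpf1 (0.75), Naca (0.74), Cth (0.73) and Chtop (0.73). They were followed by 4930579G24Rik (0.73), Gm6607 (0.71), Ampd2 (0.71), Cmtr2 (0.70), Dimt1 (0.69) and Snhg7 (0.69). The lowest values belonged to Tmbim6 (-0.75), Zmiz2 (-0.74), 1700025G04Rik (-0.74), Atp9a (-0.72), Gltp (-0.72) and Tfe3 (-0.71). These genes are the extremes of 11181, so their r is a description with no test. The member score itself was highest in tumours with a high chromosome 3 mean. The chromosomes on which these genes lie were not compared here, and the part of the chromosome 3 difference in these r was not tested.

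Of 12 listed pairs of paralogs or ribosome partners, 5 could be computed with both genes measured. Rpl7 and its paralog Rpl7l1 rose and fell together (Pearson's r = 0.51, permutation p = 0.0024, adjusted over the 5 pairs 0.012). Spearman's rho was 0.47 (permutation p = 0.0081, adjusted 0.040), and r was 0.47 once the 2 tumours with the most extreme Rpl7 values were left out. For Rps4x and Rps4l, r was -0.36 (permutation p = 0.040, adjusted 0.099) and rho -0.22 (permutation p = 0.23). Leaving out the 2 tumours most extreme in Rps4x gave an r of -0.21. Rpl22 and Rpl22l1 had an r of -0.21 (permutation p = 0.15, adjusted 0.25) and a rho of 0.0073. Rpl39 with Rpl39l (r = -0.15, permutation p = 0.39, adjusted 0.49) and Rplp0 with its stalk partner Rplp2 (r = 0.017, permutation p = 0.92) showed no relation past the threshold either. Rps4l and Rpl39l were under the filter.

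Different probe sets of one member did not always follow each other. For 20 members with a further probe set above the filter, 50 pairs had a median r of 0.63. Rpl7l1 (r = 0.92 and 0.68) and Rpl22 (r = 0.89 and 0.23) had a close partner, while Rpl27 (r = -0.079 and -0.068) and Rpl13a (r = 0.30, -0.15 and -0.13) did not. Of the 46 probe sets used, 12 carry the suffix x and 2 the suffix s, which mark probes shared with other transcripts, and many ribosomal protein genes have near-identical processed pseudogenes. The signal of such members may include related transcripts.

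Sequence around the start was available from RefSeq (GRCm38.p6) for 44 of the 50 members, with 51 annotated starts, each given from 250 bases before to 50 after. A run of at least 7 pyrimidines that begins with C, within 15 bases of the start, was found on 22 of 51 starts (43.1%), against 14.2% of 32851 starts of all genes and 5.71% of 35 starts of ribosome assembly genes. The members with the 8 widest SDs or a called slope are shown where the table holds a start (Rpl8 has none), 15 bases to each side of the start, 5′ to 3′ on the strand of the gene, with such a run in capitals where there is one. They are Rpl14 (chr9:120571502-120571531, plus strand), Rpl27a (chr7:109519180-109519209, plus), Rps27 (chr3:90213634-90213663, minus), Rps6 (chr4:86857353-86857382, minus), Rpl22l1 (chr3:28805493-28805522, plus), Rpl12 (chr2:32961697-32961726, plus), Rps3a1 (chr3:86142654-86142683, minus), Rps25 (chr9:44407699-44407728, plus), Rps19 with 3 starts (chr7:24884577-24884606, chr7:24884661-24884690 and chr7:24884898-24884927, plus), Rpl7l1 (chr17:46782642-46782671, minus) and Rps19bp1 (chr15:80264292-80264321, minus).
Rpl14: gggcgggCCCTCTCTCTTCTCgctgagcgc
Rpl27a: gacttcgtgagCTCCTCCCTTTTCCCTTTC
Rps27: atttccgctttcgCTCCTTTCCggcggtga
Rps6: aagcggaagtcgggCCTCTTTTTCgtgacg
Rpl22l1: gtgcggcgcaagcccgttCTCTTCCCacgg
Rpl12: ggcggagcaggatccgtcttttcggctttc
Rps3a1: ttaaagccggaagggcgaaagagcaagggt
Rps25: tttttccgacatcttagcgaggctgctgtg
Rps19: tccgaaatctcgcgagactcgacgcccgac
Rps19: ccgcacggtgagtgagggctctgggtcgcg
Rps19: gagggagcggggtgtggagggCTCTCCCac
Rpl7l1: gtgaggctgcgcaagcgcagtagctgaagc
Rps19bp1: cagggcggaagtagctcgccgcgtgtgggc
Rpl14 and Rpl27a, which had opposite slopes with proliferation, both carry a long run, and Rpl7l1 and Rps19bp1, which rose with it, carry none. A start that is annotated a few bases away from the one used would change these matches.

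The motif CCGGAAG, a binding sequence of ETS family factors, was found on either strand in 20 of 51 member windows (39.2%), against 8.86% of all windows of the same length and 31.4% of those of assembly genes. It is shown in capitals, 5′ to 3′ on the strand of the gene, for Rps3a1 (chr3:86142669-86142689, minus), which had the clearest separation on chromosome 3, and for Rps6 (chr4:86857441-86857470, minus).
Rps3a1: agattcttaaagCCGGAAGgg
Rps6: gttaatctacgcCCGGAAGtaacgcccctc
The motif CACGTG, an E-box that Myc with Max can bind, was found in 5 of 51 member windows (9.80%), 7.15% of all windows and 20% of those of assembly genes. The motif TATAAA, on the strand of the gene, was found in 5 of 51 (9.80%) and 8.32%. A match describes these letters in this window and no binding was measured.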

How the data were processed

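Total RNA of 32 lymphomas had been hybridised to Affymetrix Mouse430_2 arrays. Per the submitters' processing notes, the authors used affy and RMA. The deposited unit is log2 intensity summarised over the probes of each set. RMA gives all arrays one distribution, so a shift common to most genes would not show. The versions of these tools were not given. Array medians lay between 5.72 and 5.80, and 0 pairs of arrays were identical. The number of arrays limits the precision.

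The platform annotation names 1 gene for 34945 of 45101 probe sets, and these were used (932 name several, 9211 none). Those with a mean of at least 5.78, the median of all, were kept, and the brightest stood for its gene. Slopes per SD of 9 measures were tested with limma 3.58.1 in R 4.3.3, over all genes, with Benjamini-Hochberg adjustment and a limit of 0.05. Listed genes, Myc, and Gapdh and Actb were left out of the tests of their own measures. The genes of a chromosome mean stayed in its test. Relations used two-sided permutation tests with 100000 resamples. Other steps used Python 3.11.15, numpy 2.4.6, pandas 2.3.3, scipy 1.17.1 and matplotlib 3.10.9.

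Members, lists, tests and the rule for named genes were chosen with earlier results of these data known. Named members were the 8 largest and 5 smallest SDs, the called members on each measure, the pairs and those under the filter. Fau, Rpl10a, Rpl11, Rps20 and the other members described for single tumours were added after their values were seen, and Rpl37 and Rps7 by their chromosome. Named other genes were the 12 highest and 6 lowest in likeness and list members at the extremes. A salivary gland list (7 of 7 genes passed) served as a covariate, for tissue taken along at dissection. The limma step was tested on simulated data with 200 of 11227 genes changed: it recovered 8% to 25% of slopes of 0.5 gene SDs and 88% to 96% of slopes of 1 gene SD over the 9 measures, and 2.59% to 11.9% of its calls were false, most for the chromosome 3 mean. Neither the recovery nor the false share was tested for the bright members alone. Their median SD was 0.053, against a shared residual SD of 0.22 to 0.23 in limma. Alternatives tried were an average over probe sets, no x or s suffix, other filters, a shift by reference genes, covariates, ranks, other priors and tumours left out. No batch is named in the labels.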

Additional observations from a re-analysis of the deposited data

How the results depend on the processing

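Counts of members called depended on the setting for most measures. Each count of the 46 members is followed by the share of all genes called. With the mean of all probe sets of a gene they were 2 (Myc, 20.5%), 10 (assembly, 35.7%) and 7 (host cells, 32.1%). With arrays shifted by the reference genes they were 8 (Myc, 21.9%), 1 (assembly, 27.8%), 1 (3' minus 5' difference, 0.659%) and 12 (chromosome 3, 6.72%). The host cell score as a covariate gave 0 (Myc, 3.22%) and 2 (assembly, 13.6%), and the salivary gland score 0 (Myc, 18.4%) and 1 (3' minus 5', 0.454%). Ranks of the measure gave 0 (Myc, 10.5%), 1 (proliferation, 17.1%), 2 (host cells, 21.1%) and 0 (3' minus 5', 0.0267%). A filter at the 75th percentile, which 44 members passed, gave 0 (Myc, 20.7%) and 1 (chromosome 3, 7.34%), where Rps27 was no longer tested. For host cells, no filter gave 4 of 50 (19.4%) and leaving out x and s suffixes gave 3 of 41 (28.6%).

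The following alternatives were chosen after seeing the data. A prior that follows the mean level gave 5 (Myc, 20.1%), 7 (assembly, 30.2%), 3 (host cells, 28.4%), 4 (3' minus 5', 1.24%) and 2 (chromosome 12, 1.33%). No moderation gave 5 (Myc, 19.7%), 7 (assembly, 29.9%), 10 (proliferation, 27.4%), 4 (host cells, 28.2%), 5 (3' minus 5', 1.51%), 5 (chromosome 3, 4.34%), 2 (chromosome 12, 1.27%) and 4 (chromosome 15, 6.11%). Without tumours 2, 24 and 30 the counts were 0 (Myc, 8.62%), 0 (assembly, 15.9%), 2 (proliferation, 7.85%) and 0 (host cells, 8.26%), and without tumours 9 and 19 they were 0 (Myc, 16.3%) and 0 (3' minus 5', 0%).

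Leaving out each tumour in turn gave 0 to 2 members on Myc, 2 to 4 on assembly, 3 to 7 on proliferation, 0 to 0 on the precursor score, 1 to 2 on host cells, 1 to 2 on the 3' minus 5' difference, 2 to 2 on chromosome 3, 0 to 0 on chromosome 12 and 1 to 2 on chromosome 15. The median SD was then 0.0605 to 0.0652 and the median r 0.108 to 0.144. The median SD was 0.0858 with the mean of probe sets, 0.0772 without x and s suffixes and 0.0899 with shifted arrays, and the median r with shifted arrays was 0.516. Causes were not tested. No paired analysis was possible because the labels give 1 group. The bright members lie near the top of the scale, and the share of a signal ceiling in their small spread was not tested.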
